A study of Mus musculus with 15 samples.

Results

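The 10 genes Cyp4a10, Cyp4a12a, Cyp4a12b, Cyp4a14, Cyp4a31, Cyp4a32, Cyp4b1, Cyp4f13, Cyp4f14 and Cyp4f15 were taken by name from the 37991 genes of a liver RNA sequencing table. They encode cytochrome P450 enzymes of the Cyp4 family. The study asked how age changes the mouse liver transcriptome and what loss of S6K1 changes in old animals. Whole livers of female C57BL/6 mice on a chow diet were sequenced in 3 groups of 5, namely young WT at 90 days, old WT at 600 days and old KO at 600 days. The old KO mice lacked S6K1 (ribosomal S6 kinase 1, gene Rps6kb1) in every tissue, and a young KO group was not analysed here, so genotype was compared at 600 days alone. Each library came from 1 animal.

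Cyp4 enzymes sit in the endoplasmic reticulum and add oxygen to the far (omega) end of a fatty acid. Alcohol and aldehyde dehydrogenases turn the product into a dicarboxylic acid, which peroxisomes shorten by beta-oxidation. In mouse liver Cyp4a10 and Cyp4a14 are textbook targets of PPARα, the nuclear receptor that senses fatty acids, and they rise with fasting and with fibrate drugs. Cyp4a12a is the male-predominant arachidonic acid hydroxylase of this species, and Cyp4f enzymes act on leukotriene B4 and other eicosanoids.

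Cyp4a members lie close together, and some of them are so alike that a short read cannot always be placed. On NCBIM37 (mm9) the 6 Cyp4a genes and Cyp4b1 occupied chr4:114971651-115320322, and Cyp4f13, Cyp4f14 and Cyp4f15 occupied chr17:32822572-33084347. Over their coding regions Cyp4a10 and Cyp4a31 were identical at 96.6% of aligned bases, Cyp4a10 and Cyp4a32 at 97.2%, and Cyp4a12a and Cyp4a12b at 98.5%. Cyp4a10 and Cyp4a14 shared 75.5%, Cyp4f14 and Cyp4f15 shared 80.01%, and Cyp4a10 and Cyp4f14 shared 57.9%. Because reads were 50 bases long, the share of 50-base coding windows that also occur in a transcript of another protein-coding gene was counted. Pseudogenes were not searched, and untranslated parts of the members were not checked. It was 40.6% for Cyp4a10, 31.5% for Cyp4a31, 46.8% for Cyp4a32 and 54.9% for Cyp4a12a and for Cyp4a12b. For Cyp4a14 and Cyp4b1 it was 0%, and it was at most 3.87% for the Cyp4f members. Among protein-coding genes, the coding windows of Cyp4a14 and Cyp4b1 were thus their own, and those of the Cyp4f genes mostly were. The split of counts among Cyp4a10, Cyp4a31 and Cyp4a32, and between Cyp4a12a and Cyp4a12b, is uncertain. A looser count took windows within 2 mismatches of another of the 10 members in the same subfamily (Cyp4a or Cyp4f), not of any gene. It gave 97.4% for Cyp4a10, 86.2% for Cyp4a31, 84.1% for Cyp4a32, 91.1% for Cyp4a12a and for Cyp4a12b, 8.60% for Cyp4f13, 13.8% for Cyp4f14, 12.1% for Cyp4f15 and 3.59% for Cyp4a14. Cyp4b1 has no other member of its subfamily among the 10 and was not compared.

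**Figure D1:**
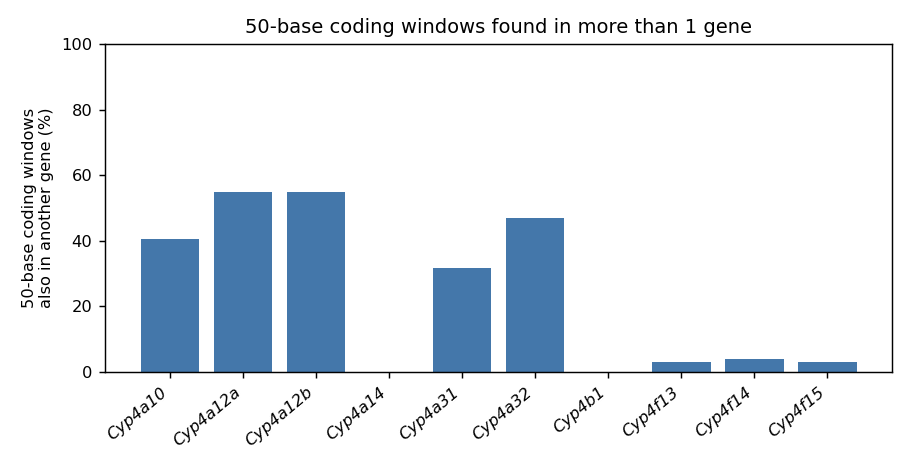
Bars show, for each of the 10 genes, the percentage of its 50-base coding windows that occur without a mismatch in a transcript of another protein-coding gene. Cyp4a14 and Cyp4b1 stand at 0%, the Cyp4f genes at 2.89% to 3.87%, and the other Cyp4a genes at 31.5% to 54.9%.

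Exon sequences show what that means for a read. The first line below is a stretch of coding exon 2 that Cyp4a10, Cyp4a31 and Cyp4a32 share letter for letter (chr4:115192325-115192374, chr4:115237705-115237754 and chr4:115274955-115275004, plus strand), and a read from it fits all 3 genes. The next 3 lines are the window of the same exon where these genes differ most, with the 7 bases that vary in capitals (chr4:115192269-115192318, chr4:115237649-115237698 and chr4:115274899-115274948). The last pair is the most different window of Cyp4a12a and Cyp4a12b, in coding exon 6, with their 4 differing bases in capitals (chr4:114999237-114999286 and chr4:115105490-115105539).
Cyp4a10, Cyp4a31 and Cyp4a32, identical: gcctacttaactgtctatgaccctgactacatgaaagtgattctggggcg
Cyp4a10: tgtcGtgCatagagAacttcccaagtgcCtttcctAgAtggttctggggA
Cyp4a31: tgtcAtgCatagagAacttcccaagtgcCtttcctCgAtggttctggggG
Cyp4a32: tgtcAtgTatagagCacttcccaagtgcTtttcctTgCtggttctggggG
Cyp4a12a: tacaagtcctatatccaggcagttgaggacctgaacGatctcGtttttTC
Cyp4a12b: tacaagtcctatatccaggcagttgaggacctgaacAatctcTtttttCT

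Promoters were looked up in RefSeq windows of GRCm38.p6, which run from 250 bases before to 50 after a gene's start, and 5 of the 10 members matched (Cyp4a32, Cyp4b1, Cyp4f13, Cyp4f14 and Cyp4f15). Cyp4a10, Cyp4a12a, Cyp4a12b, Cyp4a14 and Cyp4a31 had no entry. Cyp4f14 had 4 start windows, of which only the first listed was searched here. The direct repeat AGGTCANAGGTCA, a form of the element that PPARα binds, was searched on both strands and was in none of the 5 windows and in 0.0396% of all 32851 windows. The single unit AGGTCA, which lies inside that repeat, was in none of the 5 and in 16.3% of all. A STAT5 motif, TTCNNNGAA, which reads the same on both strands, was in the windows of Cyp4b1 and Cyp4f13 and in 8.30% of all. A TATA motif, TATAAA, was found for Cyp4a32 on the minus strand, and 13.6% of all windows held it. Absence says only that these letters are not in the window. The 250 bases before the start are printed for Cyp4a32 (chr4:115600688-115600937, plus strand, TATA motif in capitals), a member that was lower in old livers, and for Cyp4f14 (chr17:32917357-32917606, minus strand, no motif), the member whose old WT and old KO livers did not overlap.
Cyp4a32: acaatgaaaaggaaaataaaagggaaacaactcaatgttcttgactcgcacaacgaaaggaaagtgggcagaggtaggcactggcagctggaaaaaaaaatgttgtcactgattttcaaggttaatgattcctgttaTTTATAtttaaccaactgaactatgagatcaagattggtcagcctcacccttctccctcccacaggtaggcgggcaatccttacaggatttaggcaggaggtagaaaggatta
Cyp4f14: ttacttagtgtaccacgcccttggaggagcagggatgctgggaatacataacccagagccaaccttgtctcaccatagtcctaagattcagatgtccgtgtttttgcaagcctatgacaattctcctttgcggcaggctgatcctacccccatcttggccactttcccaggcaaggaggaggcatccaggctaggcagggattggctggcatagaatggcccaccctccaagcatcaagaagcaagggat

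Library totals were 21801754 to 38065359 counts, so that counting error was small for abundant members and large for Cyp4a12a and Cyp4a12b. Labels gave no batch. Rps6kb1, the targeted gene, was measured in CPM, which relates counts to library size after TMM scaling. It ranged from 33.3 to 41.4 CPM among young WT, from 34.6 to 45.4 CPM among old WT and from 15.2 to 20.8 CPM among old KO livers, so remaining transcript was counted in the knockouts. Hepatocyte markers summed to 95442 to 163327 CPM per library, and of 4 Y-linked genes Ddx3y and Kdm5d had 0 counts, Eif2s3y had at most 2 counts in any group and Uty had 67, 62 and 71 counts summed over young WT, old WT and old KO libraries. In bulk liver, fewer cells of a type and less RNA per cell cannot be told apart.

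Per unit of exon length, Cyp4a14 and Cyp4a10 were far above the other members in every group. In young WT livers, levels in RPKM, the CPM divided by exon length in kilobases, were 4334 ± 772 (SD, n = 5) for Cyp4a14 and 2107 ± 226 for Cyp4a10. Next came Cyp4f15 at 66.7 ± 8.05, Cyp4f14 at 49.3 ± 15.6, Cyp4a31 at 43.2 ± 12.5 and Cyp4a32 at 31.7 ± 9.16 RPKM. Cyp4f13 stood at 15.02 ± 1.82, Cyp4b1 at 5.38 ± 1.05, Cyp4a12a at 0.296 ± 0.220 and Cyp4a12b at 0.103 ± 0.0775 RPKM. Neighbours in this order from Cyp4f14 to Cyp4a32 differed by less than their spread. In old WT livers the order of the middle members changed, with Cyp4f15 at 58.7 ± 7.32, Cyp4f14 at 46.1 ± 4.93, Cyp4f13 at 12.6 ± 0.854, Cyp4a32 at 8.64 ± 1.12, Cyp4b1 at 5.67 ± 1.24 and Cyp4a31 at 5.41 ± 3.18 RPKM. Cyp4b1 and Cyp4a31 were then indistinguishable by their spread. In old KO livers Cyp4f14 (72.6 ± 12.3 RPKM) and Cyp4f15 (61.8 ± 7.84 RPKM) also differed by less than 1 SD of Cyp4f14, and Cyp4a31 was down to 2.89 ± 1.17 RPKM. All 10 members together took 1.32% to 1.96% of the counts of young WT, 0.566% to 1.11% of old WT and 0.281% to 1.31% of old KO libraries.

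**Figure D2:**
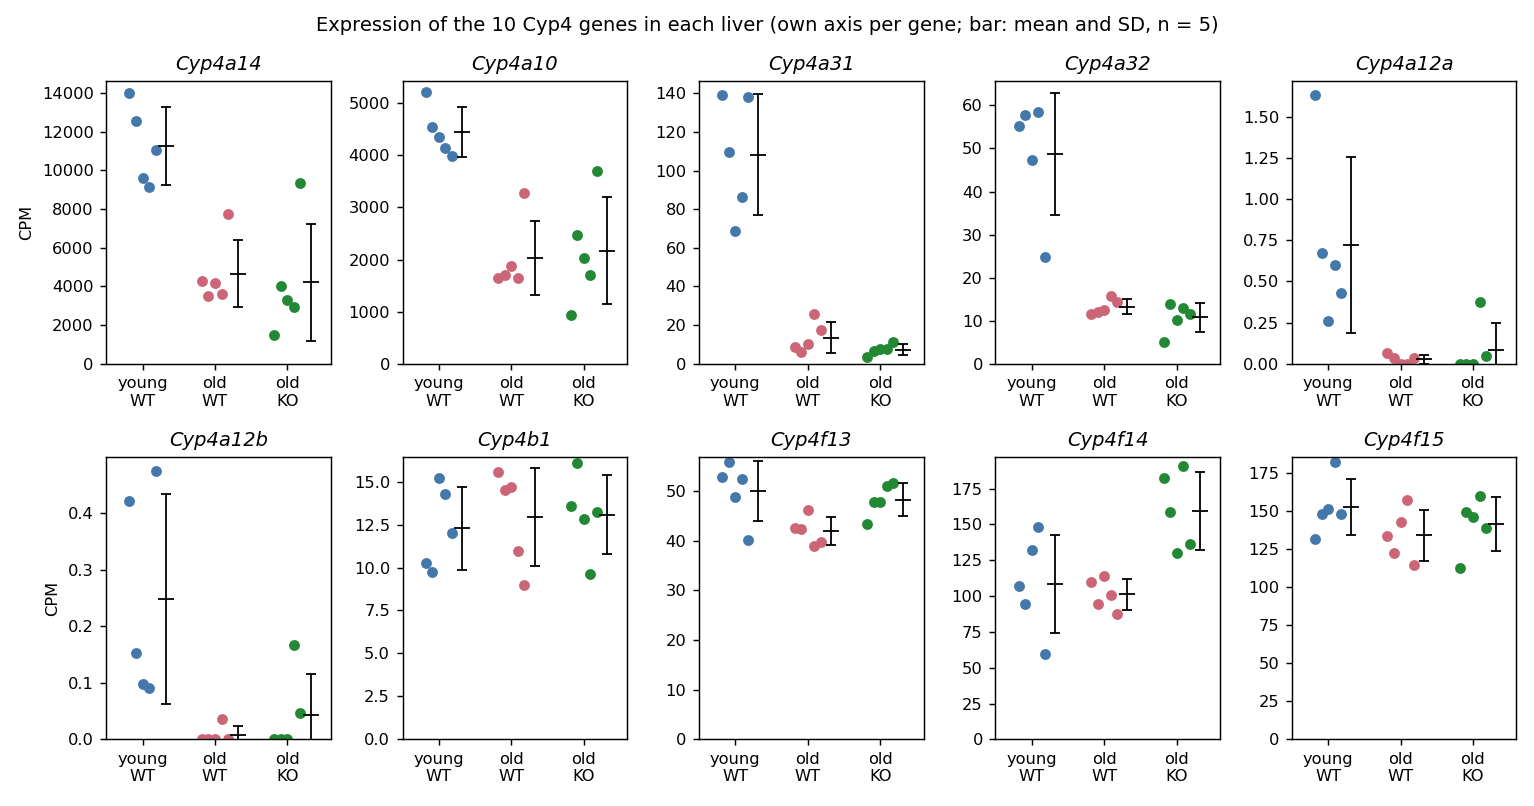
Each point is the CPM of 1 gene in 1 liver, each panel has its own linear axis from 0, and black bars give the mean and SD of 5 livers. Cyp4a14, Cyp4a10, Cyp4a31 and Cyp4a32 are higher in every young WT liver than in any old WT liver, 1 liver stands high for Cyp4a14 and Cyp4a10 in each old group, and all 5 old KO livers lie above the old WT livers for Cyp4f14.

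Cyp4a10, Cyp4a14, Cyp4a31 and Cyp4a32 were lower in old WT than in young WT livers, as were the few counts of Cyp4a12a and Cyp4a12b. Cyp4f13 passed the threshold narrowly, and Cyp4b1, Cyp4f14 and Cyp4f15 did not pass it. Of the 8 members that passed the filter on low counts, 5 were lower in old WT than in young WT livers and 0 were higher. Among all 14258 genes tested, 8.91% were lower and 9.92% higher. Groups did not overlap for 4 of the 8, against 11.4% of all genes. Cyp4a10, Cyp4a31 and Cyp4a32 are near copies with an uncertain split of reads, so these counts are not of independent genes. The median log2 fold change was −0.69 over the 8 members and 0.01 over all genes. Adjusted p-values here and below are Benjamini-Hochberg values of edgeR's quasi-likelihood test over all genes.

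Cyp4a14, the most abundant member and a fatty acid omega-hydroxylase, stood at 13980, 12527, 9624, 9162 and 11077 CPM in young WT 1, 2, 3, 4 and 6. In old WT 1, 4, 5, 7 and 10 it stood at 4280, 3523, 4163, 3618 and 7734 CPM. Every young liver was above every old WT liver, and old WT 10 was well above the other old WT livers. The fold change was 2.42-fold lower with age (log2 −1.27, SE 0.366, adjusted p = 0.0244). Without old WT 10 the log2 change was −1.53 (adjusted p = 0.0127), and leaving out young WT 1, old WT 1, old WT 4 or old WT 5 lost the call, with log2 changes of −1.18 to −1.24 and adjusted p of 0.0540 to 0.0610.

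Cyp4a10, which hydroxylates lauric and related acids, had 5211, 4539, 4344, 4137 and 3987 CPM in the same young livers. Its old WT values were 1642, 1697, 1883, 1646 and 3281 CPM. The groups did not overlap, and old WT 10 was again the high liver. It fell 2.19-fold with age (log2 −1.13, SE 0.281, adjusted p = 0.0119).

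Cyp4a31 and Cyp4a32, neighbours and near copies of Cyp4a10, showed the largest falls among the 8 tested members. Cyp4a31 had 139, 110, 68.6, 86.2 and 138 CPM in young WT and 8.81, 5.90, 9.99, 25.6 and 17.5 CPM in old WT livers. No old value came near the lowest young one. The fall was 8.004-fold (log2 −3.00, SE 0.370, adjusted p = 0.000189). Cyp4a32 had 55.3, 57.7, 47.3, 58.5 and 24.8 CPM in young WT and 11.7, 12.0, 12.6, 15.7 and 14.4 CPM in old WT livers. Young WT 6 was low for its group but still above all old WT livers, and the fall was 3.68-fold (log2 −1.88, SE 0.242, adjusted p = 0.000244).

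Because reads of these 3 genes can be exchanged, their counts were also summed. The sum of Cyp4a10, Cyp4a31 and Cyp4a32 was lower in old WT by a log2 change of −1.16 (adjusted p = 0.0102), a value set by Cyp4a10, which holds nearly all of the counts. Counts of Cyp4a31 amounted to between 1.58% and 3.47% of those of Cyp4a10 among young WT, between 0.348% and 1.56% among old WT and between 0.265% and 0.437% among old KO livers. All young livers were above all old ones on this share, by a narrow margin over old WT 7. For Cyp4a32 the share was 0.623% to 1.41%, 0.439% to 0.953% and 0.314% to 0.756%, and the groups overlapped. Cyp4a14 counts were between 221% and 278% of Cyp4a10 counts among young WT, between 208% and 261% among old WT and between 159% and 253% among old KO livers. In 4 of the 5 old KO livers this last share was 159% to 170%, below every other library.

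**Figure D3:**
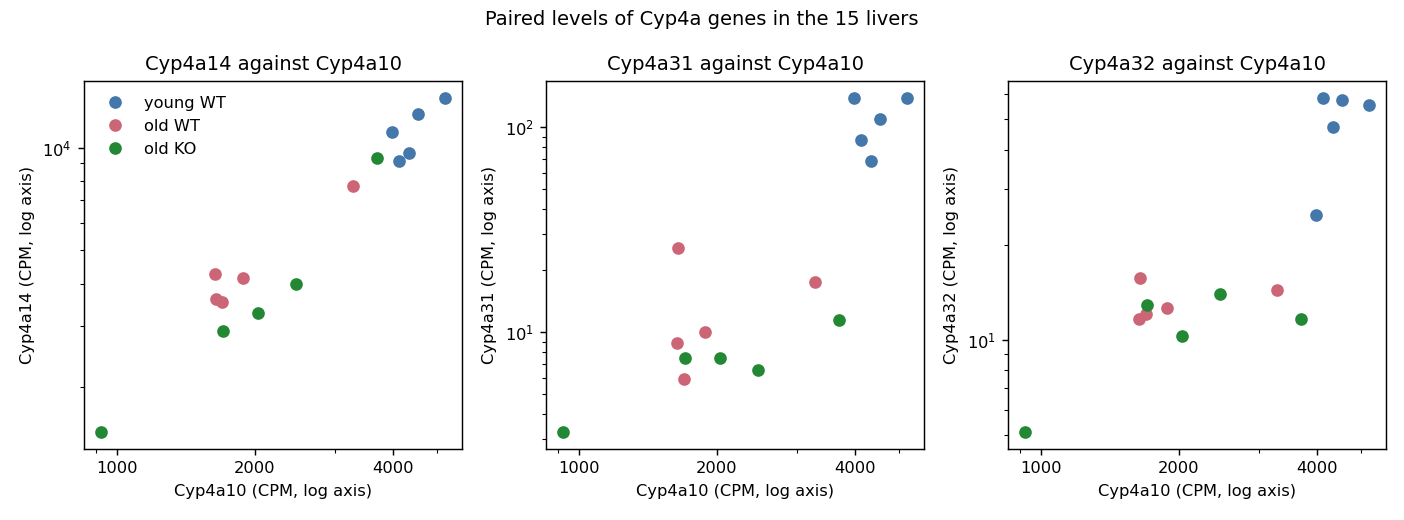
Points are the 15 livers, with Cyp4a10 in CPM on the horizontal log axis and Cyp4a14, Cyp4a31 or Cyp4a32 in CPM on the vertical log axis. Young WT livers lie at the upper right, apart from all old livers for Cyp4a31 and Cyp4a32 but next to the highest old KO liver for Cyp4a14, and the high old WT and old KO livers of Cyp4a10 (3281 and 3700 CPM) are also the high ones of Cyp4a14 (7734 and 9345 CPM).

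Cyp4a12a and Cyp4a12b were near the limit of detection in these female livers and did not pass the filter. Cyp4a12a had 62, 22, 8, 20 and 10 counts in young WT livers and at most 2 in any old WT liver. Summed over groups there were 122 counts in young WT, 4 in old WT and 10 in old KO livers. The young to old WT rate ratio was 28.6 (95% interval of the counts 10.9 to 107, counting error only), and an exact 2-sided permutation test of log2(CPM + 0.1) over the animals gave p = 0.00794, the smallest that 5 against 5 allows. Cyp4a12b had 38 counts in young WT, 1 in old WT and 5 in old KO livers, with a young to old WT ratio of 35.7 (6.03 to 1446) and the same exact permutation p of 0.00794. Every young liver had counts of both genes. Of the 10 counts of Cyp4a12a in old KO livers 9 came from old KO 5, which also held 4 of the 5 counts of Cyp4a12b.

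The Cyp4f members and Cyp4b1 showed small fold changes with age. Cyp4f13, a hepatic Cyp4f gene, had 52.8, 55.8, 48.9, 52.4 and 40.1 CPM in young WT and 42.6, 42.4, 46.2, 38.9 and 39.8 CPM in old WT livers. Ranges overlapped through young WT 6. The change was 1.19-fold lower (log2 −0.25, SE 0.0856, adjusted p = 0.0494), and it missed the threshold under 5 of 8 other settings and in 12 of 15 fits without 1 library. Cyp4f14, an eicosanoid omega-hydroxylase, showed a log2 change of −0.10 (SE 0.186, 95% interval −0.46 to 0.27). Cyp4f15 showed −0.18 (SE 0.111, interval −0.40 to 0.03). Its values were 131, 148, 151, 182 and 148 CPM in young WT and 133, 123, 143, 157 and 114 CPM in old WT livers. Cyp4b1, best known from lung, where it oxidises short fatty acids and foreign compounds, had 10.2, 9.74, 15.2, 14.3 and 12.0 CPM in young WT and 15.6, 14.5, 14.7, 10.96 and 8.97 CPM in old WT livers. Its log2 change was 0.08 (interval −0.26 to 0.41), and the groups overlapped widely.

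Loss of S6K1 in old livers changed 0 of the 8 tested members past the threshold, while 0.533% of all genes passed (0.421% were lower). At an unadjusted p under 0.05, 3 of the 8 differed, namely Cyp4f14, Cyp4a31 and Cyp4f13, and 11.6% of all genes (1661 of 14258) did. DESeq2 and a fit of the 10 libraries of the comparison each called 1 member, Cyp4f14. The age and genotype comparisons share the old WT libraries, and values of the members are therefore given side by side without a measure of their likeness. The median log2 fold change with genotype was 0.04 over the 8 members and 0.00 over all genes.

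Cyp4f14 was the single tested member whose old groups did not overlap, which 3.20% of all genes did. It had 110, 94.5, 114, 101 and 87.4 CPM in old WT livers and 182, 159, 130, 191 and 136 CPM in old KO 1, 2, 4, 5 and 6. The lowest knockout liver was above the highest old WT liver. Old KO was 1.57-fold higher (log2 0.65, SE 0.187, 95% interval 0.29 to 1.02, adjusted p = 0.145 by edgeR), and the adjusted p was 0.0345 by DESeq2 and 0.0404 with the 10 libraries alone. Young WT livers spanned 59.6 to 148 CPM (107, 94.7, 132, 148 and 59.6 CPM) and overlapped both old groups. Macrophage markers were lower in the same old KO livers (8 of 12 past the threshold), and their part in the Cyp4f14 difference was not tested.

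The knockout livers spread widely for Cyp4a14 and Cyp4a10. Cyp4a14 had 1472, 4001, 3285, 2913 and 9345 CPM in old KO livers, a 6.35-fold range, against a 2.20-fold range in old WT and a 1.53-fold range in young WT livers. Cyp4a10 had 927, 2465, 2037, 1709 and 3700 CPM, a 3.99-fold range, against 1.998-fold in old WT and 1.31-fold in young WT livers. Cyp4a31 went the other way between the old groups, with a 3.52-fold range in old KO and a 4.34-fold range in old WT livers, and Cyp4a32 spanned 2.73-fold and 1.35-fold. A wider range in old KO was not particular to Cyp4 genes. Of PPARα targets named after their values were seen, Acot1 spanned 14.0-fold in old KO and 4.76-fold in old WT livers, and Pdk4 5.52-fold and 2.06-fold. Vnn1 (4.75-fold and 17.5-fold) and Cd36 (1.86-fold and 3.63-fold) went the other way. Old KO 1 was the lowest and old KO 6 the highest for Cyp4a14 and Cyp4a10. Their log2 changes with genotype were −0.15 (interval −0.86 to 0.56) and 0.09 (interval −0.45 to 0.64). Without old WT 10 the Cyp4a14 value was 0.11 and without old KO 1 it was 0.07, whereas without old KO 6 the values were −0.68 for Cyp4a14 and −0.19 for Cyp4a10. Direction with genotype thus rests on single livers for both genes.

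Cyp4a31 had 3.26, 6.54, 7.45, 7.46 and 11.5 CPM in old KO livers, and its log2 change with genotype was −0.91 (interval −1.63 to −0.19, adjusted p = 0.328 by edgeR). Ranges of the old groups overlapped. Cyp4a32 had 5.09, 13.9, 10.2, 12.9 and 11.6 CPM, with a log2 change of −0.30 (interval −0.78 to 0.17). Cyp4f13 had 43.3, 47.9, 47.8, 50.9 and 51.6 CPM and a log2 change of 0.20 (interval 0.03 to 0.37, adjusted p = 0.361 by edgeR). Cyp4f15 (112, 149, 146, 160 and 139 CPM, log2 0.08) and Cyp4b1 (13.6, 16.1, 12.9, 9.64 and 13.2 CPM, log2 0.01) overlapped the old WT livers. For Cyp4a12a and Cyp4a12b the exact permutation p between the old groups was 0.802 and 0.444.

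Old KO livers were also set against young WT livers, a difference that joins age and genotype. Of the 8 tested members 4 were lower and 1 was higher, where 11.3% of all genes were lower and 12.0% higher. Groups did not overlap for 3 of the 8, against 13.9% of all genes. These counts too include the near copies Cyp4a10, Cyp4a31 and Cyp4a32 as separate genes. Cyp4a31 was 15.05-fold lower (log2 −3.91, SE 0.391, adjusted p = 2.16e-05) and Cyp4a32 was 4.54-fold lower (log2 −2.18, SE 0.246, adjusted p = 4.71e-05). Cyp4a14 was 2.68-fold lower (log2 −1.42, SE 0.367, adjusted p = 0.0115), although old KO 6 at 9345 CPM exceeded young WT 4 at 9162 CPM. Cyp4a10 was 2.05-fold lower (log2 −1.04, SE 0.281, adjusted p = 0.0152). Cyp4f14 was 1.47-fold higher (log2 0.56, SE 0.186, adjusted p = 0.0402), with overlapping groups, and it missed the threshold in 6 of 15 fits without 1 library. Cyp4f13 showed −0.05, Cyp4f15 −0.11 and Cyp4b1 0.09 on the log2 scale.

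**Figure D4:**
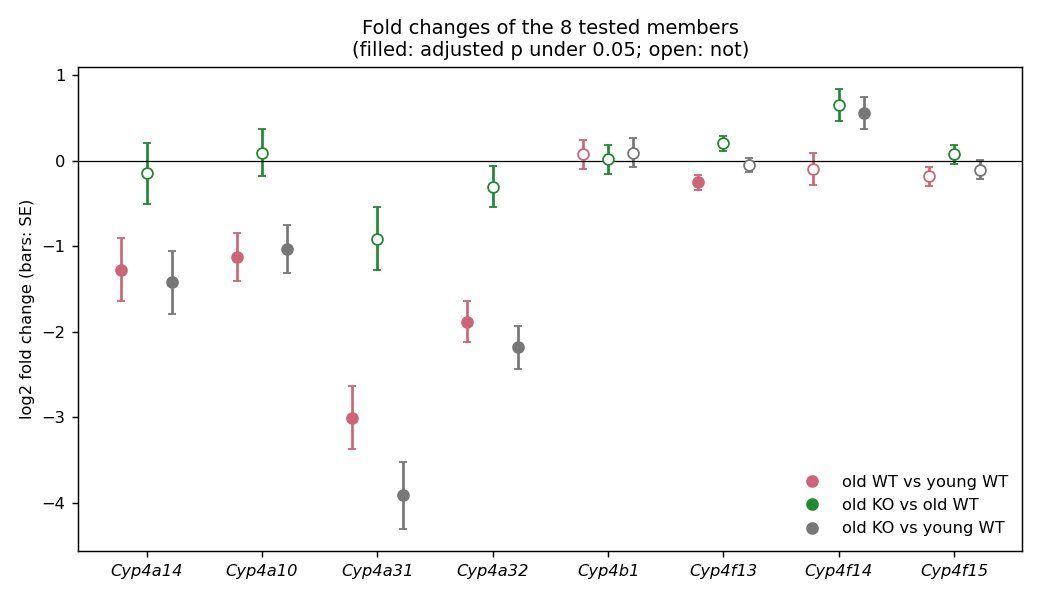
Points give the fitted log2 fold change of the 8 tested members in the 3 comparisons and bars its SE, with filled points where the adjusted p was under 0.05. The 4 Cyp4a members lie between −3.91 and −1.04 in both comparisons with young WT, and Cyp4f14 reaches 0.65 in old KO against old WT, an open point.

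Genes that vary with a member from animal to animal were sought after removing group means, over 15 libraries that share their depth and RNA with the member. These correlations describe the libraries and carry no p. Cyp4a14 and Cyp4a10 moved together (Pearson r = 0.96, Spearman rho = 0.81, r = 0.91 without the 2 libraries farthest from the median). For Cyp4a14 the most similar genes were Tram2 (r = 0.96), Acot1 (r = 0.95, rho = 0.93), which encodes a PPARα-responsive acyl-CoA thioesterase, and Elmod3 (r = 0.95). Ehhadh, the bifunctional enzyme of peroxisomal beta-oxidation, followed it at r = 0.94. Cyp4a31 followed Cyp4a10 less closely (r = 0.59, and 0.27 without the 2 farthest libraries). Cyp4b1 was most similar to Pxdn (r = 0.92), Cnr2 (r = 0.92) and Kdr (r = 0.90), the last an endothelial receptor. Cyp4f14 was most similar to Pear1 (r = 0.93), Tmem86b (r = 0.91) and Slc43a3 (r = 0.89). Cyp4a12a was too low for such a search.

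Downstream of omega-hydroxylation, 21 genes of omega-oxidation and peroxisomal beta-oxidation were tested. With age 3 rose and 3 fell, where 9.92% of all genes rose and 8.91% fell, and the median log2 change was −0.13. For this list and those below, 12.0% of all genes were higher and 11.3% lower in old KO against young WT livers. Among all genes 0.533% passed with genotype. Ehhadh fell (log2 −1.44, SE 0.424, adjusted p = 0.0269), with young WT livers between 2625 and 5834 CPM and old WT livers between 849 and 2960 CPM. Adh1, an alcohol dehydrogenase, rose (log2 0.80, adjusted p = 0.00103) and so did Acot3, a peroxisomal thioesterase (log2 0.96, adjusted p = 0.0454). With genotype 0 of 21 passed the threshold, with a median of −0.24 (0.00 over all genes). Estimates were lower in old KO than in old WT livers for 18 of the 21. Between old KO and young WT 2 were higher and 8 lower, among them Ehhadh (log2 −1.93, adjusted p = 0.0050) and the thiolase gene Acaa1a (log2 −0.74, adjusted p = 0.0115), while Adh1 was higher (log2 0.96, adjusted p = 0.000193).

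Of 11 tested genes of PPARα and its partners 4 fell and 0 rose with age, where 8.91% of all genes fell and 9.92% rose. Lpin1, a phosphatidate phosphatase and PPARα coactivator, fell by 2.33 on the log2 scale (adjusted p = 0.0081), and Ppargc1a, a coactivator, changed by −0.98 (adjusted p = 0.0443). The groups overlapped for both, with Lpin1 between 36.0 and 337 CPM among young WT and between 29.0 and 62.3 CPM among old WT livers. Ppara itself showed a log2 change of −0.09 with age (interval −0.49 to 0.31) and of −0.44 with genotype (interval −0.84 to −0.04, adjusted p = 0.425). Old KO livers had 5 of the 11 lower than young WT livers and 0 higher, including Creb3l3, a hepatic transcription factor (log2 −0.54, adjusted p = 0.0341), and the mediator subunit gene Med1 (log2 −0.30, adjusted p = 0.0035). Of 20 other PPARα targets 1 fell with age and 0 rose, namely Cpt1a, the gate of mitochondrial fatty acid entry (log2 −0.63, adjusted p = 0.0075). The median of that list was −0.24, and 17 of the 20 had lower estimates in old WT livers. Between old KO and young WT 5 of the 20 were lower, including Acot2 (log2 −1.42, adjusted p = 0.0371), Cpt1a (log2 −0.99, adjusted p = 0.000347) and the lipid droplet gene Plin2 (log2 −0.93, adjusted p = 0.0256). With genotype 0 of the 11 partners and 0 of the 20 targets passed. Estimates were lower in old KO than in old WT livers for 8 of the 11 and 19 of the 20. The medians were −0.08 and −0.23, against 0.00 over all genes. Of 7 fasting-induced genes 0 passed in any of the 3 comparisons. Their median log2 change was −0.17 with age and −0.61 with genotype, with 5 of the 7 lower in each. Between old KO and young WT it was −0.40, with 6 of the 7 lower.

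**Figure D5:**
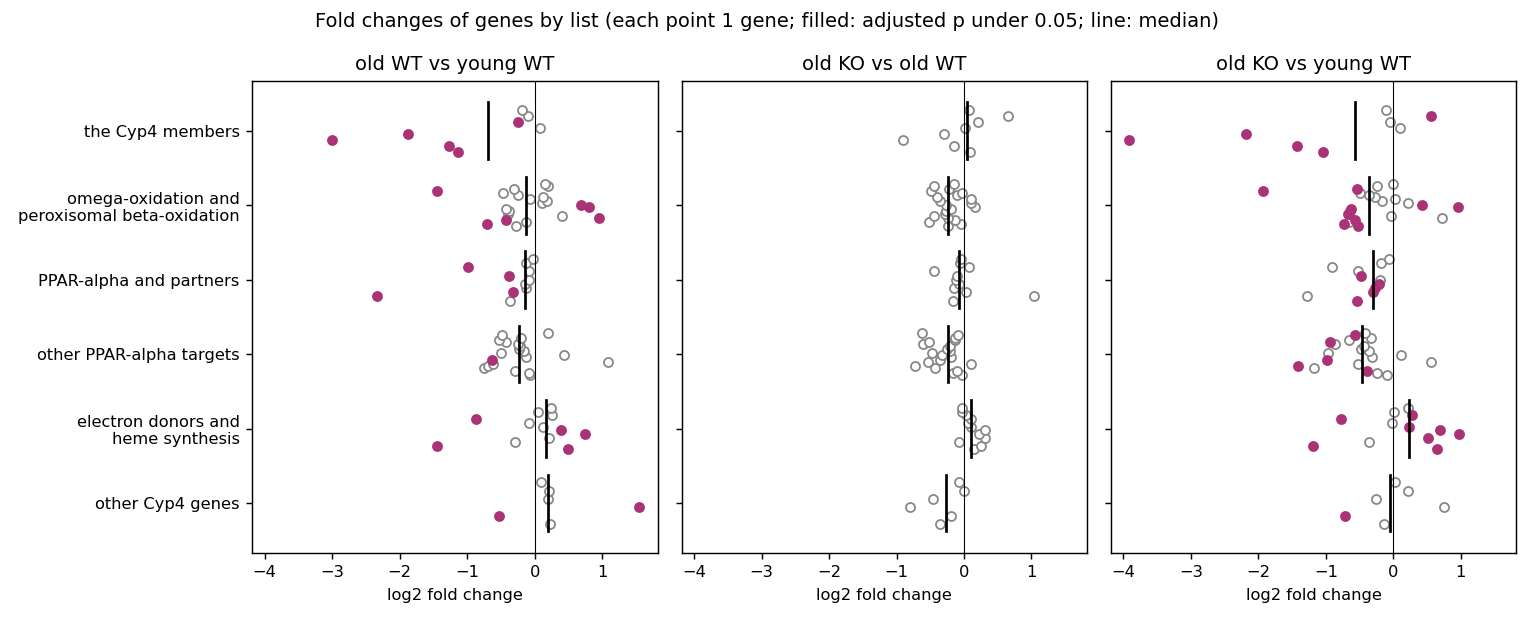
Each point is the log2 fold change of 1 gene in the named list, filled where the adjusted p was under 0.05, and the vertical line is the list's median, in 3 panels for the 3 comparisons. Cyp4a31 holds the lowest value of the age panel (−3.00), and Lpin1 (−2.33) lies below the other Cyp4 members. The middle panel, old KO against old WT, has no filled point.

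P450 enzymes need electrons and heme, and 12 genes of that supply were tested. With age 2 fell and 3 rose, where 8.91% of all genes fell and 9.92% rose. Alas1, the rate-limiting enzyme of heme synthesis, fell (log2 −1.45, SE 0.272, adjusted p = 0.00266), Por, the reductase that feeds microsomal P450s, fell (log2 −0.88, SE 0.206, adjusted p = 0.0089), and Cyb5b, an outer mitochondrial cytochrome b5, rose (log2 0.75, adjusted p = 0.00435). With genotype 0 of the 12 passed, and between old KO and young WT 6 were higher and 2 lower, with Alas1 at −1.19 (adjusted p = 0.0056), Por at −0.78 (adjusted p = 0.0133) and Cyb5b at 0.97 (adjusted p = 0.000653) on the log2 scale. Of 10 further Cyp4 genes 6 were tested. Cyp4f17 fell with age (log2 −0.53, adjusted p = 0.0384) and Cyp4f18, a leukocyte leukotriene hydroxylase named after its values were seen, rose (log2 1.55, adjusted p = 0.00261). Old KO livers had less Cyp4f17 than young WT livers (log2 −0.72, adjusted p = 0.0072), and 0 of the 6 passed with genotype. Cyp4f18 stayed between 0.184 and 1.32 CPM in all libraries. Of 8 tested leukotriene genes 0 passed with age or genotype, and Ptgr1, which inactivates leukotriene B4, was higher in old KO than in young WT livers (log2 0.89, adjusted p = 0.0451).

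Sex-biased liver genes were examined because Cyp4a12a is one of the male-biased group. Among all genes 8.91% fell and 9.92% rose with age. Of 10 tested male-biased genes 4 fell with age and 0 rose, including Cyp2d9 (log2 −3.66, adjusted p = 0.000342), Susd4 (log2 −3.08, adjusted p = 0.00071) and Slco1a1, an organic anion transporter (log2 −1.81, adjusted p = 0.0124). Of 13 female-biased genes 5 rose and 1 fell, with A1bg (log2 4.61, adjusted p = 0.00237) and Hao2 (log2 4.43, adjusted p = 0.000499) rising and the sulfotransferase gene Sult3a1 falling (log2 −4.80, adjusted p = 0.000108). With genotype 0 of the male-biased and 1 of the female-biased genes passed, Sult3a1, which was higher in old KO (log2 2.999, adjusted p = 0.0223). Against young WT, old KO livers had 5 male-biased genes lower and 1 higher, and 5 female-biased genes higher and 1 lower. Slco1a1 (log2 −2.84, adjusted p = 0.000934), Susd4 (log2 −2.35, adjusted p = 0.00194) and Cyp2d9 (log2 −2.07, adjusted p = 0.00457) were lower, and Hao2 (log2 4.01, adjusted p = 0.000529), A1bg (log2 3.45, adjusted p = 0.0064) and Cyp3a16 (log2 3.11, adjusted p = 0.0326) were higher.

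Other gene lists were tested in the same comparisons as the members, where 9.92% of all genes rose and 8.91% fell with age. In old KO against young WT livers 12.0% of all genes were higher and 11.3% lower, and 0.533% passed with genotype. Of 10 lipogenic genes 2 rose with age, Scd1 (log2 1.65, adjusted p = 0.00475) and Pklr (log2 0.92, adjusted p = 0.00693). Against young WT 5 were higher in old KO livers, among them Scd1 (log2 1.74, adjusted p = 0.00264) and Pnpla3 (log2 1.73, adjusted p = 0.0242). Of 14 clock genes 3 rose with age, including Nfil3 (log2 1.08, adjusted p = 0.00382) and Npas2 (log2 0.99, adjusted p = 0.00499), and 1 fell, Nr1d1 (log2 −1.46, adjusted p = 0.0368). In old KO against young WT livers 4 were higher and 1 lower, with Nfil3 at 1.13 (adjusted p = 0.0021), Npas2 at 1.04 (adjusted p = 0.00272) and Nr1d1 at −1.47 (adjusted p = 0.0308). With genotype 0 lipogenic and 0 clock genes passed. Of 10 hepatocyte markers 1 rose and 2 fell with age, and 0 passed with genotype. All 12 macrophage markers had lower estimates in old KO than in old WT livers and 8 passed the threshold, their summed level being between 281 and 657 CPM among old WT and between 161 and 239 CPM among old KO livers. With age 0 of the 12 passed. Of 8 tested lymphocyte and neutrophil markers 2 rose with age, 22.2 to 42.6 CPM in sum against 8.82 to 24.6 CPM in young WT. Of 6 cholangiocyte markers 1 rose with age, of 8 stellate cell markers 1 fell, of 6 endothelial markers 2 fell, and of 3 adipocyte and mesothelial markers 0 passed. The part of these clock, lipogenic and cell marker differences in the Cyp4 values was not tested.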

How the data were processed

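RNA from whole liver of 15 mice was made into stranded poly(A) libraries and read as single 50-base ends. The authors mapped reads to mm9 with TopHat (version 2.0.11 in the submitters' processing notes) and used HTSeq to count them by gene. As deposited, the values are whole-number counts, neither normalized nor pooled. The annotation and the strand setting of the counting are not given in the sources used here, so counts of near-identical or overlapping genes are uncertain (Cyp4a10 overlaps a small RNA gene on its strand, Cyp4a12b an antisense pseudogene).

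Groups came from the sample titles. In edgeR 4.0.16 (R 4.3.3) counts were TMM-scaled, filtered with filterByExpr (14258 genes kept), and fitted with a quasi-likelihood model over all 15 libraries, with Benjamini-Hochberg adjustment over all genes and a threshold of 0.05. CPM used TMM-scaled library sizes and RPKM the exon length of GENCODE M1 (NCBIM37). The SE of a log2 change was derived from the F statistic of that model. The 95% intervals of log2 changes took this SE with the normal distribution, which makes them somewhat too narrow for 15 libraries. They are not adjusted for the number of genes. Cyp4a12a and Cyp4a12b were compared by exact permutation. Alternatives were other scalings, filters and fits, DESeq2 1.42.0, limma 3.58.1 and leaving out each library. Of 215 list entries 210 matched by symbol, 3 by synonym and 2 as pseudogene forms.

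The members and lists were chosen with earlier results of these data known. In each pathway list and comparison, up to 3 genes were named, those past the threshold with the largest change and a mean of at least 1 CPM, and some genes the rule names are not reported here. Separate animals give the spread.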

Additional observations from a re-analysis of the deposited data

Results flagged for a closer look

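In 30 groups of 5 libraries (10 members in 3 groups), 5 held a library far from its neighbours by Dixon's test at the 95% level, which chance does in about 1 of 20 groups of continuous values. That rate does not hold for the Cyp4a12a and Cyp4a12b cases, 3 of the 5, which rest on a few counts against libraries at 0 or 1 count. Old WT 10 stood high for Cyp4a10 (3281 CPM, the next old WT liver 1883 CPM) and for Cyp4a14 (7734 CPM, the next 4280 CPM). Old KO 5 stood high for Cyp4a12a (0.377 CPM, the next 0.0464 CPM) and for Cyp4a12b (0.168 CPM, the next 0.0464 CPM). Old WT 7 held the single Cyp4a12b count of its group (0.0367 CPM).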

How the results depend on the processing

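Between old WT and young WT, 5 members passed, and between 4 and 6 did under 7 of 8 other settings. The replicate numbers did not pair the animals (correlations of same-numbered libraries -0.153 to 0.0770, none best with its own number). With a replicate block 2 members passed with age, Cyp4a31 and Cyp4a32, among 899 genes in place of 2685, and the summed Cyp4a10, Cyp4a31 and Cyp4a32 counts changed by -1.21 (adjusted p = 0.0792). Leaving out 1 library gave 3 (without young WT 1) to 6 members with age and 0 to 1 with genotype (1, Cyp4f14, without young WT 6). With genotype DESeq2 called 1 member (305 genes) and the 10 libraries of the comparison 1, while 76 genes passed in the fit of all libraries, 23 by limma voom and 6 with the replicate block. Without a filter on low counts Cyp4a12a and Cyp4a12b also passed with age.

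Log2 changes that turned direction were all uncalled. Cyp4b1 with genotype was -0.0053 under upper quartile scaling and -0.26 with the replicate block, and -0.091 to 0.10 without 1 library. Without 1 library, Cyp4f14 with age ran from -0.24 to 0.030, Cyp4a14 with genotype from -0.68 to 0.11, Cyp4a10 with genotype from -0.19 to 0.34, the sum of Cyp4a10, Cyp4a31 and Cyp4a32 with genotype from -0.19 to 0.33, and that of Cyp4a12a and Cyp4a12b with genotype from -0.64 (without old KO 5) to 2.08. The causes were not tested. Depth limits Cyp4a12a and Cyp4a12b, with 4 counts and 1 count in all old WT libraries.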
